A study of Mus musculus with 3 samples.

Results

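The genes described here are the receptors, adaptors, kinases and caspases of innate sensing in macrophages sorted from mouse kidney. They were chosen by gene symbol, with earlier results of these data known. The families were Toll-like receptors and their accessory proteins, TIR adaptors, IRAK kinases, TRAF proteins and IKK-family kinases. NOD-like receptors, cytosolic nucleic acid sensors, caspases, gasdermins and RIP kinases were also taken. The choice took 71 of the 14811 genes listed. Among these 71, Casp8ap2, Ikbkap and Irak1bp1 share only a symbol prefix with the families. RNA-seq was done on 3 libraries, each from 1 mouse of the strain labelled C57BL6/J, and the 3 form a single group. Every mouse received PBS intravenously, kidneys were taken 1 h later, and the macrophages were sorted by flow cytometry after digestion with DNase, collagenase D and dispase. No group without the injection or digestion was compared, and the labels give neither age nor sort markers.

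Innate sensing starts with receptors that bind molecules of microbes or of damaged cells. Toll-like receptors do so at the cell surface and in endosomes. Most signal through MYD88 and the IRAK kinases to TRAF6 and the IKK complex, which releases NF-kB, while TLR3 and endosomal TLR4 use TRIF and the kinase TBK1, which leads to type I interferon. In the cytosol, RIG-I-like receptors detect RNA, cGAS and AIM2 detect DNA, and NOD-like receptors such as NLRP3 assemble inflammasomes with the adaptor ASC to activate caspase-1, which matures interleukin-1 beta and cuts gasdermin D. RIP kinases and caspase-8 link these pathways to cell death.

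The libraries held 50646558 to 56718534 reads over the listed genes. The 71 genes took 0.484%, 0.349% and 0.449% of the reads in mice 1, 2 and 3. All 10 macrophage markers checked, among them Adgre1, Csf1r and C1qa, were at 1000 or more normalised reads in every mouse. Neutrophil markers were near 0, with a summed level over the 2 listed of 8 between 0 and 19.4 normalised reads and S100a9 at 0 in every mouse. T and NK cell markers summed to 0.806 to 4.23 over the 4 listed of 8, and Cd3e and Trbc2 were at 0. Proximal tubule markers were present: the 8 of 8 listed summed to 62918, 235374 and 38295 normalised reads in mice 1, 2 and 3, and of these only Slc5a2 reached 0, in mouse 3. Of 6 B cell markers Ighm and Cd79b were listed and summed to 20759, 9303 and 9642. They had opposite orders over mice 1, 2 and 3, with Ighm at 20532, 5363 and 3283 and Cd79b at 227, 3940 and 6359. Of 5 monocyte markers Ccr2 and Ly6c2 were listed, at 29145, 8939 and 12215 and at 1069, 2.77 and 0.705 normalised reads, both highest in mouse 1. The 6 conventional dendritic cell markers summed to 3960, 1333 and 1885: Clec9a was at 3421, 1330.3 and 1462, Xcr1 at 534, 2.77 and 407, Zbtb46 and Flt3 each had reads in 1 mouse, and Cd209a and Ccr7 were at 0 in every mouse. Plasmacytoid dendritic cell markers (3 of 5 listed) summed to 4597, 7618 and 2371, endothelial markers (5 of 6) to 534, 133 and 1387, markers of other nephron segments (6 of 6) to 175, 1696 and 1009.3, and fibroblast or pericyte markers (5 of 6) to 953, 225 and 193. The plasmacytoid sums were nearly all Bst2 (1298, 2590 and 944) and Tcf4 (3297, 5029 and 1426), while Runx2 had 2, 0 and 2 reads. In bulk samples such as these, fewer cells of a type and less RNA per cell cannot be told apart, and the part of other cell types in the values below was not tested.

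Levels are given as normalised reads per kb of exon, called per kb below, so that genes of different length can be set side by side. The median gene with a mean of 10 or more normalised reads was at 73.2, 96.1 and 75.3 per kb in mice 1, 2 and 3. Of the 71 genes, 37 (52.1%) were at 10 or more normalised reads in every mouse, where 44.4% of all listed genes were. There were 13 (18.3%) at 1000 or more in every mouse, against 14.7% of listed genes. Another 5 (7.04%) had no read in any mouse, against 6.59%: Irak3, Ticam2, Ikbke, Nod1 and Traf3ip2. Where no read was found, the level could still have been as high as 3 reads, which is 2.42, 1.66 and 2.11 normalised reads in the libraries of mice 1, 2 and 3. This floor covers counting error only.

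The level of each gene was compared with that of the median gene of its library. A total of 61 innate sensing genes had a mean of 10 or more (78.6% of listed genes did) and were tested among 11603 genes. Of the rest, 5 had no read and 5 more (Casp9, Casp12, Nlrx1, Ripk4 and Traf4) had 1 to 31 reads in at least 1 mouse. The mean log2 difference from the library's median gene had a median of 0.48 over the 61 and of -0.76 over all tested genes. With limma's moderated test and Benjamini-Hochberg adjustment over all tested genes, none of the 61 passed, and neither did any other gene (0% above and 0% below). The lowest adjusted p was 0.0665, limma. At an unadjusted p under 0.05, 11 of the 61 were above (18.8% of all tested genes) and 10 below (17.2%). The spread between mice fell with the level, and a limma fit that lets the prior spread follow the level, added after the values were seen, called 14 above and 0 below (22.7% and 4.32% of all tested genes). These 14 were Cd14, Ly96, Casp1, Pycard, Tlr7, Casp8, Tlr4, Unc93b1, Dhx58, Tbk1, Tlr13, Tlr1, Ifih1 and Myd88. They were above the median gene in 3 of 3 mice. Under that fit 14, 11 and 12 of them kept the call without mouse 1, 2 and 3 in turn. Ifih1 and Myd88 lost it without mouse 2 or 3, and Tlr1 lost it without mouse 2. In this added fit limma's prior degrees of freedom were infinite, so each gene was tested with the spread typical of its level and its own spread between mice did not enter its p-value. The call of a single gene below is from this fit, named as the trend fit.

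**Figure D1:**
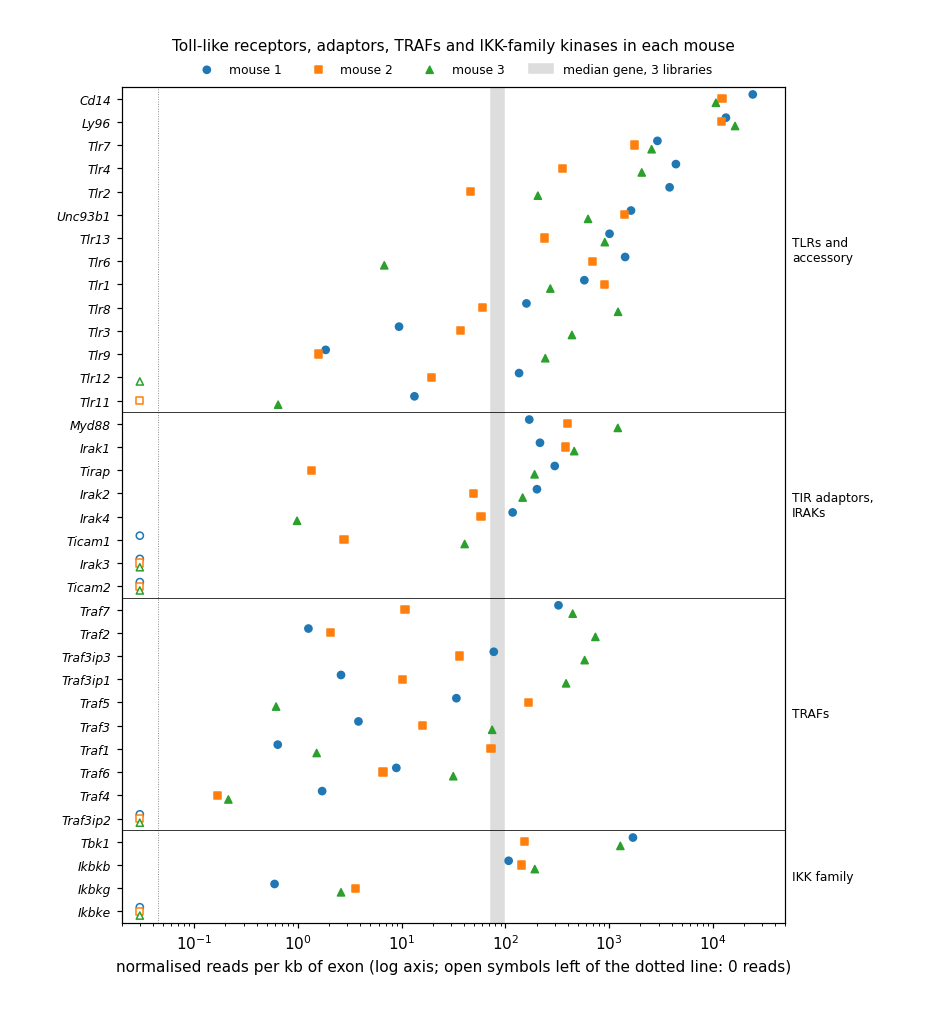
Levels of the Toll-like receptor, adaptor, TRAF and IKK-family genes in normalised reads per kb of exon (log axis), with one symbol per mouse, open where there were 0 reads, and the range of the median gene over 3 libraries in grey. Cd14 and Ly96 stand farthest to the right, at 10690.5 per kb or more in every mouse, and Traf7, Traf2, Traf3ip3, Traf3ip1 and Traf5 have values on both sides of the grey band.

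Cd14 and Ly96, of the lipopolysaccharide receptor complex, had the 2 highest mean levels per kb of the 71 genes. Cd14, which hands lipopolysaccharide to the receptor, was at 24251, 12224 and 10690.5 per kb in mice 1, 2 and 3. Ly96, which encodes the MD-2 subunit that binds the lipid, was at 13362, 12044 and 16357 per kb. Both were within 3-fold between mice and ranked in the top 0.718% of genes by mean level per kb. Tlr4 itself was at 4403, 359 and 2063 per kb, with mouse 2 far below the others. It lay 4.20 log2 units above the median gene (adjusted p = 6.7e-13, limma trend fit, and 0.0904 by limma without the trend, higher in 3 of 3 mice). The same fit gave 7.50 log2 units for Cd14 and 7.41 for Ly96.

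Of the endosomal receptors, Tlr7, a sensor of single-stranded RNA, was the steadiest at 2921, 1742 and 2568 per kb. Unc93b1, the chaperone that carries these receptors to endosomes, was at 1625, 1403 and 627 per kb. Tlr13, which detects bacterial ribosomal RNA, was at 1009.6, 236 and 908 per kb. Those 3 genes were called above the median gene by the trend fit. The others differed widely between mice. Tlr8 was at 160, 60.4 and 1219 per kb, Tlr3, the receptor for double-stranded RNA, at 9.45, 36.8 and 438 per kb, and Tlr9, the receptor for unmethylated CpG DNA, at 1.86, 1.60 and 243 per kb. Mouse 3 was highest for all 3 of them. The profilin receptors went the other way: Tlr12 was at 136, 19.4 and 0 per kb, and Tlr11 at 13.3, 0 and 0.646 per kb.

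Of the surface receptors for lipoproteins, Tlr2 was at 3828, 46.2 and 206 per kb, an 82.8-fold range. Its partners differed in steadiness. Tlr1 was at 577, 895 and 271 per kb and was called above the median gene (2.68 log2 units, adjusted p = 0.0022, limma trend fit, and 0.115 without the trend, higher in 3 of 3 mice). Tlr6, at 1426, 693 and 6.81 per kb, spanned 210-fold and was above the median gene in 2 of 3 mice. Its SD over mice of log2 normalised reads was 4.15, and that of Tlr12, the largest of the group, was 4.47. Altogether 11 of the 14 genes of this group were at 10 or more normalised reads in every mouse (44.4% of listed genes) and 7 were called above by the trend fit (22.7% of tested genes).

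Of the TIR adaptors, Myd88 was at 170, 397 and 1213 per kb. Ticam1, which encodes TRIF, was at 0, 2.78 and 40.5 per kb, on 0, 15 and 172 reads. Ticam2, which encodes TRAM, the bridge from TLR4 to TRIF, had no read in any mouse. The groups of 3 values of Myd88 and Ticam1 did not overlap. Within a library Myd88 exceeded Ticam1 in 3 of 3 mice, by a log2 ratio of 8.99, 6.995 and 4.89 (mean 6.96 ± 2.64 SE, adjusted p = 0.0482, limma). By the same test 20.7% of all genes were above Ticam1. Here too limma's prior degrees of freedom were infinite, so every ratio to Ticam1 was tested with 1 common spread. The same held for the ratios to Tlr8, Tlr3, Casp4, Ripk3, Ifih1 and Traf3 given below. In mouse 1, where Ticam1 had no read, Myd88 was at least 210-fold higher per kb against the floor of 3 reads. Leaving out mouse 1 ended the call (log2 ratio 5.94, limma adjusted p = 0.240), as did leaving out mouse 2 (6.94, limma adjusted p = 0.287), while it held without mouse 3 (7.99, adjusted p = 0.00909, limma). These fits had 1 library fewer, and without mouse 2 the ratio itself hardly changed. The call was also lost with the trend fit (limma adjusted p = 0.0589) and without division by exon length (adjusted p = 0.0542, limma). Tirap, which bridges TLR2 and TLR4 to MYD88, was at 299, 1.35 and 191 per kb, with mouse 2 nearly empty.

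Of the IRAK kinases, Irak1 was the steadiest at 216, 382 and 461 per kb, followed by Irak2 at 202, 49.1 and 147 per kb. Irak4, the first kinase recruited by MYD88, was at 118, 58.3 and 0.983 per kb. Irak3, which encodes the inhibitory IRAK-M, had no read in any mouse. Irak4 was therefore at least 179-fold and at least 129-fold above Irak3 per kb in mice 1 and 2, while in mouse 3 the 7 reads of Irak4 gave a bound of 1.71-fold. The pair was not tested, since Irak3 was below the minimum.

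Of the 10 TRAF genes and TRAF-interacting genes, none was at 1000 or more normalised reads in every mouse (14.7% of listed genes were) and 4 were at 10 or more (44.4%). Of the 8 tested, none was called by the trend fit (22.7% of tested genes above and 4.32% below). Traf7 was at 325, 10.8 and 446 per kb. Traf2, a ligase of TNF receptor signalling, was at 1.26, 2.07 and 737 per kb, and its SD of log2 normalised reads, 5.01, was the highest of the 61 tested genes. Traf3ip3 was at 77.3, 36.2 and 581 per kb. Traf6, the ligase downstream of the IRAK kinases, was at 8.90, 6.62 and 31.5 per kb, on the lower side of the median gene in each of the 3 mice, which did not pass (log2 difference -2.70, adjusted p = 0.134, limma). Traf3, which acts in interferon induction, was at 3.84, 16.0 and 74.6 per kb. The Traf6/Traf3 ratio was 1.18, -1.26 and -1.24 in log2 units, with mouse 1 opposite to the others (adjusted p = 0.903, limma; 0.233% of genes were called below Traf3). Mouse 3 held the highest value of Traf2, Traf3, Traf6, Traf7, Traf3ip1 and Traf3ip3, while Traf1 (0.640, 72.7 and 1.52 per kb) and Traf5 (33.7, 166 and 0.617 per kb) were highest in mouse 2.

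Of the IKK family, Tbk1, the kinase that activates IRF3, was at 1697, 152 and 1283 per kb, while the related Ikbke had no read in any mouse. Tbk1 was at least 6326-fold, 821-fold and 5474-fold above Ikbke per kb in mice 1, 2 and 3 against the floor of 3 reads. Tbk1 lay 3.10 log2 units above the median gene (adjusted p = 5.8e-05, limma trend fit, and 0.144 without the trend, higher in 3 of 3 mice). Ikbkb, a catalytic subunit of the IKK complex, was steady at 108, 144 and 192 per kb, a 1.79-fold range. Ikbkg, which encodes the NEMO scaffold, was low in every mouse at 0.597, 3.63 and 2.61 per kb, on 6, 53 and 30 reads. The merged exons of Ikbkb span 19.1 kb, against a median of 4.13 kb for the 71 genes, and exons that are rarely used lower a value per kb.

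**Figure D2:**
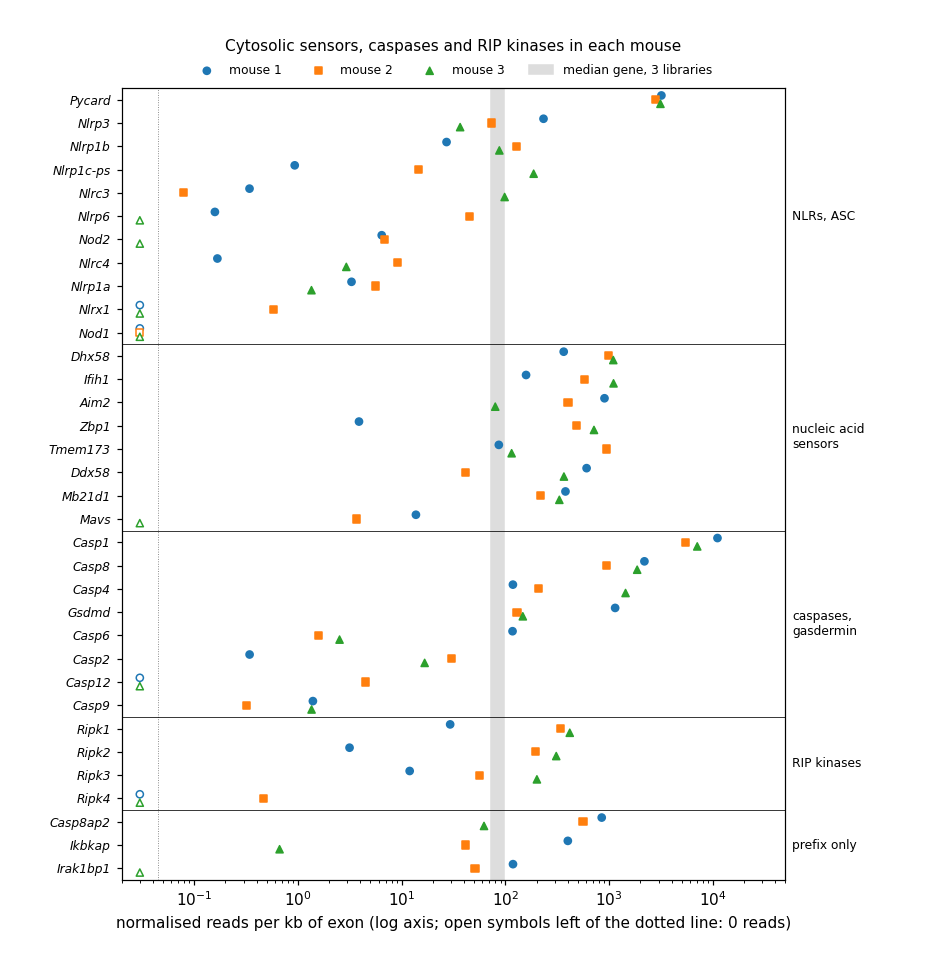
Levels of the NOD-like receptor, nucleic acid sensor, caspase and RIP kinase genes in normalised reads per kb of exon (log axis), with one symbol per mouse, open where there were 0 reads, and the median gene in grey. The 3 values of Pycard lie at 2790.3 per kb or more and those of Casp1 at 5418 or more, and no NOD-like receptor gene is above the grey band in every mouse.

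Of the inflammasome genes, Pycard, which encodes the adaptor ASC, was at 3191, 2790.3 and 3124 per kb, a 1.14-fold range, and its SD of log2 normalised reads was 0.10. Nlrp3 was at 233, 73.9 and 36.7 per kb. Pycard exceeded Nlrp3 within each library by a log2 ratio of 3.77, 5.23 and 6.40 (mean 5.14 ± 1.77 SE, limma adjusted p = 0.0392, 3 of 3 mice), where 5.13% of all genes were called above Nlrp3. For ratios to Nlrp3 limma's prior degrees of freedom were 40.4, so this SE rested mostly on a spread common to all of them. Leaving out any 1 mouse ended the call, at a log2 ratio of 5.82 (limma adjusted p = 0.110), 5.09 (limma adjusted p = 0.184) and 4.50 (limma adjusted p = 0.144) without mice 1, 2 and 3. Each of those fits had 1 library fewer, so a lost call alone does not tie the ratio to 1 mouse. The trend fit, again with a spread set by the level alone, gave an adjusted p of 6.4e-06, limma.

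Of the 11 genes of this group, Pycard, Nlrp3 and Nlrp1b were at 10 or more normalised reads in every mouse (44.4% of listed genes). Nlrp1b was at 27.1, 129 and 87.5 per kb. Its paralogs Nlrp1a (3.29, 5.60 and 1.35 per kb) and the pseudogene Nlrp1c-ps (0.933, 14.6 and 187 per kb) are close copies, so the division of reads between them is uncertain. Nlrc4, the flagellin inflammasome adaptor, was at 0.168, 9.12 and 2.93 per kb. The muramyl peptide receptor Nod2 was at 6.43, 6.86 and 0 per kb, on 40, 62 and 0 reads, and Nod1 had no read. A few members were nearly confined to one library: Nlrc3 had 3, 1 and 987 reads, and Nlrp6 had 1, 410 and 0 reads in mice 1, 2 and 3. Nlrc3 had the largest spread of the group, with an SD of 4.79 in log2 normalised reads. Mouse 2, where nearly all Nlrp6 reads were, also had the highest sum of proximal tubule markers (235374 normalised reads against 62918 and 38295). Its sums of other nephron and plasmacytoid dendritic cell markers were the highest as well, and the part of these cells in Nlrp6 was not tested.

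Of 8 nucleic acid sensors of the cytosol, 7 were at 10 or more normalised reads in every mouse (44.4% of listed genes). Dhx58, which encodes LGP2, was at 365, 979 and 1097 per kb, Ifih1, which encodes MDA5, at 158, 577 and 1103 per kb, and Aim2 at 903, 402 and 79.9 per kb. Dhx58 and Ifih1 were called above the median gene by the trend fit (3.18 and 2.52 log2 units). Ddx58, which encodes RIG-I, was at 607, 41.6 and 367 per kb. The Ddx58/Ifih1 ratio was 1.94, -3.79 and -1.59 in log2 units, so that mouse 1 and both others had opposite orders (mean -1.15 ± 1.86 SE, adjusted p = 0.690, limma), and 34.6% of genes were called below Ifih1. Without mouse 2 the mean ratio turned to 0.17 (adjusted p = 0.975, limma). Mavs, the mitochondrial adaptor that RIG-I and MDA5 need, was low at 13.7, 3.65 and 0 per kb, on 57, 22 and 0 reads.

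For DNA sensing, Mb21d1, which encodes cGAS, was steady at 380, 219 and 331 per kb. Tmem173, which encodes its effector STING, was at 86.5, 948 and 115 per kb, with mouse 2 highest. The Tmem173/Mb21d1 ratio was -2.13, 2.11 and -1.52 in log2 units (mean -0.51 ± 1.20 SE, adjusted p = 0.808, limma), and 7.48% of genes were called below Mb21d1. Without mouse 1 it turned to 0.29 (adjusted p = 0.927, limma). Zbp1, a sensor of Z-form nucleic acids that signals through RIPK3, was at 3.88, 485 and 715 per kb, a 184-fold range and the largest spread of this group. With 13.7 normalised reads in mouse 1 it passed the limit of 10 only narrowly.

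Caspases were led by the inflammatory Casp1 and the apoptotic initiator Casp8. Casp1 was at 11075, 5418 and 7071 per kb and Casp8 at 2189, 945 and 1864 per kb, both within 3-fold between mice and both called above the median gene by the trend fit (6.54 and 4.28 log2 units). Casp4, the sensor of intracellular lipopolysaccharide, was at 118, 210.5 and 1440.2 per kb. Casp1 exceeded Casp4 in 3 of 3 mice, by a log2 ratio of 6.55, 4.68 and 2.30 (mean 4.51 ± 2.05 SE), without passing the test (adjusted p = 0.101, limma), where 0.896% of genes were called above Casp4. The ratio was called without mouse 3 (5.62, adjusted p = 0.0344, limma) and with the trend fit (adjusted p = 0.0187). Gsdmd, the pore-forming substrate of both, was at 1143, 130 and 147 per kb. The executioner Casp6, at 117, 1.59 and 2.52 per kb, was highest in mouse 1. Casp9, which starts the mitochondrial pathway, had 9, 3 and 10 reads, and Casp12 had 0, 31 and 0.

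Of the RIP kinases, Ripk1 was at 29.4, 340.1 and 418 per kb, Ripk2, the kinase of NOD1 and NOD2 signalling, at 3.15, 196 and 309 per kb, and Ripk3, the kinase of necroptosis, at 12.0, 56.2 and 201 per kb. All 3 were lowest in mouse 1 and highest in mouse 3. Ripk4 had 0, 3 and 0 reads. Ripk1 exceeded Ripk3 in 3 of 3 mice, by 1.25, 2.59 and 1.05 log2 units (mean 1.63 ± 2.05 SE, adjusted p = 0.595, limma). This SE rests on the spread common to all ratios to Ripk3, not on the spread of this ratio between mice. Casp8, which cuts RIPK1 and RIPK3, exceeded Ripk3 in 3 of 3 mice by 7.46, 4.06 and 3.21 log2 units (mean 4.91 ± 2.05 SE), without passing the test (adjusted p = 0.0728, limma), where 6.02% of genes were called above Ripk3. That ratio was called without mouse 3 (5.76, adjusted p = 0.0425, limma) and with the trend fit (adjusted p = 0.0189).

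**Figure D3:**
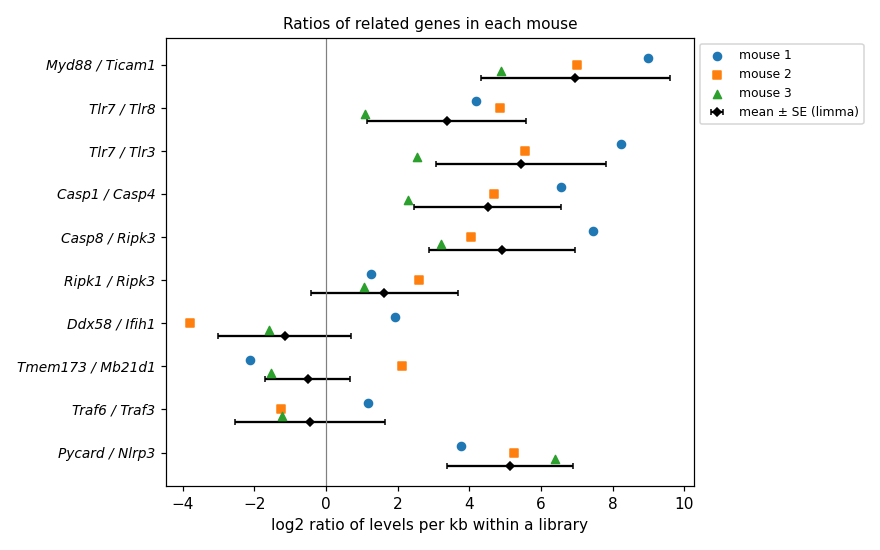
Within-library log2 ratios of levels per kb for the 10 pairs tested, with one symbol per mouse and the mean ± SE from limma in black. Except for the ratios to Mb21d1 and Nlrp3, the SE rests on a spread common to all ratios to that denominator. For Nlrp3 it rests mostly on such a common spread. In 7 pairs the 3 mice lie on one side of 0, and in Ddx58/Ifih1, Tmem173/Mb21d1 and Traf6/Traf3 they lie on both.

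In total 12 pairs of related genes were fixed, 10 could be tested and 2 passed, Myd88/Ticam1 and Pycard/Nlrp3. Tlr7 exceeded Tlr3 by 8.24, 5.56 and 2.55 log2 units without passing (mean 5.45 ± 2.37 SE, adjusted p = 0.0856, limma, with 3.22% of genes called above Tlr3), and was called above it without mouse 3 (6.90, adjusted p = 0.0112, limma). It exceeded Tlr8 by 4.19, 4.84 and 1.07 log2 units (mean 3.37 ± 2.23 SE, adjusted p = 0.272, limma, with 0.974% of genes called above Tlr8). With 3 libraries, the smallest two-sided p of an exact test that flips signs is 0.25.

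Some of these genes lie next to each other in the genome. In the gene order of RefSeq (GRCm38.p6), 6 pairs of members were neighbours among protein-coding genes and the pseudogene Nlrp1c-ps: Casp1 with Casp4, Casp4 with Casp12, Tlr7 with Tlr8, Tlr1 with Tlr6, and the Nlrp1 copies. Levels differed between some neighbours. Casp1 was at 5418 per kb or more in every mouse while Casp12, at the other end of its cluster, was read only in mouse 2, at 4.48 per kb. Tlr7 was within 1.68-fold between mice, while its neighbour Tlr8 spanned 20.2-fold.

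**Figure D4:**
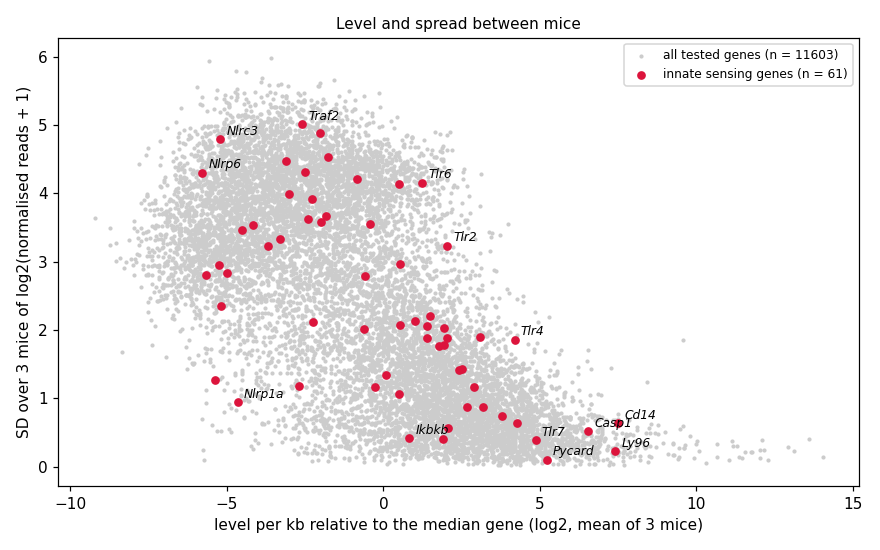
Spread between mice (SD of log2 normalised reads + 1) against level per kb relative to the median gene (log2), with 11603 tested genes in grey and 61 innate sensing genes in red. Pycard, Ly96, Tlr7, Casp1 and Cd14 lie at the lower right, and Traf2 and Nlrc3 at the top.

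The spread between mice was wide. The median SD over mice of log2 normalised reads was 2.07 for the 61 tested genes and 2.55 for all tested genes. Without mouse 3 the median over the innate sensing genes was 1.31. Among genes with a mean of 1000 or more, it was 1.77 for 32 innate sensing genes and 1.12 for 4494 genes, and below that it was 3.33 for 29 and 3.29 for 7109. Of the 61, 10 stayed within 3-fold between mice (20.7% of all tested genes): Cd14, Ly96, Tlr7, Unc93b1, Irak1, Ikbkb, Pycard, Mb21d1, Casp1 and Casp8. A further 39 differed by 10-fold or more between 2 mice or had no read in at least 1 (61.6% of all tested genes). The highest value fell in mouse 1 for 27 of the 61, in mouse 2 for 11 and in mouse 3 for 23, where all tested genes were divided as 33.9%, 34% and 32.1%.

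Of 67 further genes of these pathways, 63 were listed and 60 tested. None passed limma's test, and the trend fit called 17 above and 2 below (22.7% and 4.32% of all tested genes). The cytokine Il1b was at 8035, 10485 and 8725 per kb, while Il18, the other cytokine that caspase-1 matures, had a level of 0, 1019.5 and 3.42 per kb. Nfkbia, the inhibitor of NF-kB, was at 4963, 2129 and 3647 per kb and Irf5, a transcription factor downstream of MYD88, at 1991, 884 and 733 per kb. Chuk, the other catalytic IKK subunit, was at 1949, 989 and 2035 per kb. Map3k7, which encodes the kinase TAK1 between TRAF6 and IKK, was at 0.377, 91.5 and 1.32 per kb. Rnf31, at 0, 0 and 27.7 per kb, and Tab3, at 0, 35.2 and 0 per kb, were called below the median gene by the trend fit, each with reads in a single mouse.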

How the data were processed

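RNA was measured in 3 libraries of sorted kidney macrophages, 1 per mouse, which the labels name as separate mice. Per the labels' protocols, cDNA was made and amplified with SMART-seq V4 and libraries were prepared from 10 ng of cDNA with 8 cycles of PCR, with no molecular identifiers, so floors cover counting error only. The authors deposited a normalised signal. Reads were counted with HTSeq 0.5.4 and scaled with DESeq 1.18.0, on build mm9, per the submitters' processing notes. For the aligner, the annotation and the row filter, the sources used here give nothing. The lowest value was 1 in each library. After 1 was subtracted, 100% of values were whole multiples of 1 step per library (tolerance 0.05 of a step), which gave the reads.

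Exon lengths came from GENCODE M21, another build, by gene identifier (99.6% of genes). No coordinates are given. Genes with a mean of 10 or more were tested with limma 3.58.1 in R 4.3.3 (intercept only, log2 with a pseudocount of 1, per kb, relative to the library's median gene or to the second gene of a pair), with Benjamini-Hochberg adjustment over 11603 genes, or over 104418 ratios to 9 denominators. Log2 differences understate those of low genes. The test was tested on simulated data. That simulation covered only the fit without the trend, with a spread unrelated to level, so it does not bear on the calls of the trend fit. Values in each mouse are given for the 3 highest members per role group, both genes of each pair, the most variable member of each group, and others chosen after their values were seen. One member that this rule names is counted in the totals but not reported here by name or value. Alternatives covered the pseudocount, filter, exon length, reference and each mouse left out. The members and lists were chosen with earlier results of these data known. Other steps used Python 3.11.15 and matplotlib 3.10.9.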

Additional observations from a re-analysis of the deposited data

How the results depend on the processing

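The main limit is 3 libraries with a wide spread. The planned test on read counts was not run. Reads can be recovered from the deposited values, but here they were used only to describe depth, floors and single genes. The number of innate sensing genes called above and below the median gene, 0 and 0, became 8 and 6 with a pseudocount of 10, 12 and 6 with no filter on low values, 5 and 0 with the mean gene as reference, and 14 and 0 with the trend fit. Without 1 mouse both stayed at 0, and none of the 11603 tested genes was called, so those fits could not show that the counts held. Under the trend fit the counts were 17 and 3, 13 and 5, and 15 and 2 without mice 1, 2 and 3. The 2 pair ratios called became 0 with a pseudocount of 0.1, 5 with a pseudocount of 10, 0 with a mean of 100 or more, 1 without division by exon length, and 0 to 4 without 1 mouse. With a mean of 100 or more Myd88/Ticam1 was not tested, since Ticam1 had a mean of 43.2 normalised reads. Myd88/Ticam1 lost its call at a log2 ratio of 8.12 with a pseudocount of 0.1, 6.74 without division by exon length and 6.96 with the trend fit, and ranged from 5.94 to 7.99 without 1 mouse. Pycard/Nlrp3 lost it at 5.14 with a pseudocount of 0.1 and with a mean of 100 or more (5.14), and ranged from 4.50 to 5.82. With a pseudocount of 10, Tlr7/Tlr3 (5.35), Casp1/Casp4 (4.49) and Casp8/Ripk3 (4.74) were called. Casp8/Ripk3 was also called with no filter (4.91) and with the trend fit (4.91), as was Casp1/Casp4 (4.51) with the latter. Without 1 mouse these 3 ranged from 4.05 to 6.90, 3.49 to 5.62 and 3.63 to 5.76. Without mouse 1 Tmem173/Mb21d1 turned to 0.29 (range -1.83 to 0.29), and without mouse 2 Ddx58/Ifih1 turned to 0.17 (range -2.69 to 0.17). The cause was not tested. The number at 10 or more in every mouse kept within 1.5 times under 7 alternatives. The median spread ranged from 1.31 to 2.07 without 1 mouse, lowest without mouse 3. No paired analysis was possible because there is 1 group. Genes under about 10 normalised reads rest on few reads, and differences there were not detectable at this depth.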

Other observations

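Innate sensing genes highest in mouse 3 included Myd88, Zbp1, Ripk1, Ripk2 and Ripk3, the RNA sensors Dhx58 and Ifih1, and the endosomal receptors Tlr3, Tlr8 and Tlr9. Of the 8 tested TRAF genes and TRAF-interacting genes, 6 were highest there, against 32.1% of all tested genes. Over the 61 tested innate sensing genes, 23 were highest in mouse 3 and 27 in mouse 1 (32.1% and 33.9% of all tested genes). Those highest in mouse 1 included Cd14, Tlr2, Tlr4, Tlr6 and Nlrp3. The monocyte markers Ccr2 and Ly6c2 were also highest in mouse 1, summing to 30214, 8941 and 12216 normalised reads in mice 1, 2 and 3. The sums of macrophage (743271, 552839 and 666840), conventional dendritic cell, B cell and fibroblast or pericyte markers were highest there too. Those of plasmacytoid dendritic cell, proximal tubule and other nephron markers were highest in mouse 2, and that of endothelial markers in mouse 3. The part of these cell types in the values was not tested. The genes matched by symbol prefix alone, Casp8ap2 (848, 560 and 62.3 per kb), Ikbkap (400.02, 41.2 and 0.667 per kb) and Irak1bp1 (118, 50.9 and 0 per kb), were all highest in mouse 1 and lowest in mouse 3.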
